A study of Mus musculus with 4 samples.

Results

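Tudor-domain genes of the germ granules were followed in pachytene spermatocytes, the cells of the testis in which paired chromosomes exchange DNA during the prophase of meiosis. The 10 genes, Tdrd1, Tdrd3, Tdrd5, Tdrd6, Tdrd7, Tdrd9, Tdrd12, Tdrkh, Stk31 and Rnf17, were chosen by symbol among 19445 genes with a value in at least 1 library, and each had a value in all 4 libraries. The spermatocytes were purified from testis of adult mice on a C57BL/6 background. In 2 libraries the cells were heterozygous for the transcription factor gene Tcfl5 (Tcfl5+/-), and in 2 they were wild type (Tcfl5+/+), so the comparison asks what follows in these cells when 1 copy of Tcfl5 is disrupted. The sources used here give neither how that copy was disrupted nor whether the replicates came from separate animals. The p-values therefore measure the spread between these libraries, which may be technical. Levels are FPKM, which scales the fragments of a gene by its transcript length and by the size of the library. The number of reads behind each value is unknown.

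A Tudor domain is a small barrel-shaped fold, and in many germ granule proteins it binds methylated arginine. In germ cells these proteins hold together the RNA-protein granules called nuage or intermitochondrial cement, and in spermatids the chromatoid body, by gripping the methylated arginines of PIWI proteins. PIWI proteins carry piRNAs, the small RNAs that silence transposons and are made in large amounts at pachytene. Loss of many of the mouse Tudor genes leaves males sterile. TCFL5 is a basic helix-loop-helix protein of male germ cells, a class of proteins that bind E-boxes.

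Tcfl5 itself was at 137.0 and 188.5 FPKM in the heterozygote libraries, against 248.7 and 237.7 FPKM in the wild-type libraries. The groups did not overlap, and the difference did not pass the test across all genes (limma-trend, adjusted p = 0.242). In the libraries labelled as pachytene spermatocytes, all 11 markers of that stage were above 0, and their summed level was 8356 and 8526 FPKM in the heterozygote and 8105 and 8390 FPKM in the wild type, most of it from Ldhc and Ybx2. Ybx2 was itself higher in the heterozygote. Without these 2 genes the sum was 2035 and 2074 FPKM in the heterozygote and 2418 and 2449 FPKM in the wild type. Over all 11 markers the mean log2(FPKM + 1) was 7.89 and 7.81 in the heterozygote and 7.96 and 7.97 in the wild type. None of the 11 passed the test, and the groups were apart with the heterozygote higher in 2 and lower in 4, beside 23.6% and 19.0% of all genes tested. Adam3, a sperm surface protein gene, was at 300.8 and 294.9 FPKM in the heterozygote and 463.9 and 540.1 FPKM in the wild type (log2 difference -0.75, limma-trend, adjusted p = 0.129). Ccna1, a meiotic cyclin gene, was at 96.2 and 82.0 FPKM in the heterozygote and 142.7 and 160.3 FPKM in the wild type (log2 difference -0.76, limma-trend, adjusted p = 0.142). Ybx2 went the other way, at 2619 and 2594 FPKM in the heterozygote and 2076 and 2082 FPKM in the wild type (log2 difference 0.33, limma-trend, adjusted p = 0.178). The part of these marker differences, which went both ways, in the levels of the Tudor genes was not tested.

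Start sites are relevant here because TCFL5 belongs to a class of proteins that read short DNA letters, and promoter windows from RefSeq (GRCm38.p6, 250 bases before to 50 after a start) were found for 8 of the 10 genes, in 14 windows. Tdrd6 and Rnf17 had no window. The E-box CACGTG, which reads the same on both strands, lay in a window of 3 of the 8 genes, Tdrd1, Tdrd9 and Stk31. It lay in a window of 11.2% of the 10715 tested genes with one, and in 7.15% of all 32851 windows. Counted from the RefSeq start of the window, it began 165 and 95 bases before the start in Tdrd9 (111971559), 11 bases before the first of the 3 starts in Tdrd1 (56826209), and 55 bases before the first of the 2 starts in Stk31 (49395539). The spans of these 3 genes in the deposited files, given below, begin before these RefSeq starts, and by those spans the E-boxes of Tdrd1 and Stk31 lie inside the gene. No CACGTG was found in the windows of Tdrd3, Tdrd5, Tdrd7, Tdrd12 or Tdrkh. The 4 stretches below show the genes with the E-box and, for contrast, Tdrkh without it, each on the plus strand, with CACGTG in capitals. In the Tdrkh stretch the capitals mark AACNG on either strand, a short MYB-type core.
Tdrd9, chr12:111971309-111971469: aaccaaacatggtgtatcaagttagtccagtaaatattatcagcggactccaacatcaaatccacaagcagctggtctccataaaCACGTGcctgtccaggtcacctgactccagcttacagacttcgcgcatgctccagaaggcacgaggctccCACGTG
Tdrd1, chr19:56826186-56826215: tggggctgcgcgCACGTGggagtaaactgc
Stk31, chr6:49395472-49395501: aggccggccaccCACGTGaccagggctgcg
Tdrkh, chr3:94412994-94413137: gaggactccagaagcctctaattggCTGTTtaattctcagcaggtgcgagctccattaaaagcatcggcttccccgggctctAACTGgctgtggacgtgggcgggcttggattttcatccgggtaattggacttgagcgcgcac

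The MYB-type core was common everywhere, in windows of 7 of the 8 genes and of 81.8% of tested genes. The longer AACNGTT was found in none of the 8 genes and in 4.6% of tested genes. The general E-box CANNTG, which includes CACGTG, was in 7 of the 8 genes and in 68.7% of tested genes. The 14 windows had a median of 25 CG pairs each, where all 32851 windows had a median of 7. Those 32851 windows were not limited to tested genes, and no median was computed for tested genes alone. In the 14 windows the CG pairs went from 3 in a window of Tdrd1 to 48 in that of Tdrd5. Some windows of the same gene share bases. In Tdrd1, Tdrd9 and Stk31, the genes with CACGTG, the levels of the genotypes overlapped, as given below. Among the genes with a window but no CACGTG, they overlapped in Tdrd5 and Tdrd12 and were apart in Tdrd3, Tdrd7 and Tdrkh. Tdrd6, also apart, and Rnf17 had no window. A link between E-boxes and levels was not tested. A match of letters is a description, not a binding site.

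All 10 genes were clearly present in all 4 libraries. Their means over the 4 libraries went from 157.8 FPKM for Tdrd6, above 95.5% of the 13333 genes tested, down to 24.4 FPKM for Tdrkh, above 72.0% of them. Summed over the 10 genes the level was 636.4 and 732.7 FPKM in the heterozygote libraries and 724.3 and 748.3 FPKM in the wild-type libraries. The order of the genes was nearly the same in all libraries. In each of the 4, Tdrd6 stood highest, Tdrd9 stood below Tdrd5 and above Rnf17, and Tdrd12, Tdrd3 and Tdrkh closed the order. Between neighbours in that order, the ranges over the 4 libraries were apart only for Tdrd6 over Tdrd7, Tdrd5 over Tdrd9 and Tdrd12 over Tdrd3. The ranges of Tdrd7, Tdrd1 and Tdrd5 overlapped, as did those of neighbours among Tdrd9, Rnf17, Stk31 and Tdrd12, and those of Tdrd3 and Tdrkh.

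**Figure D1:**
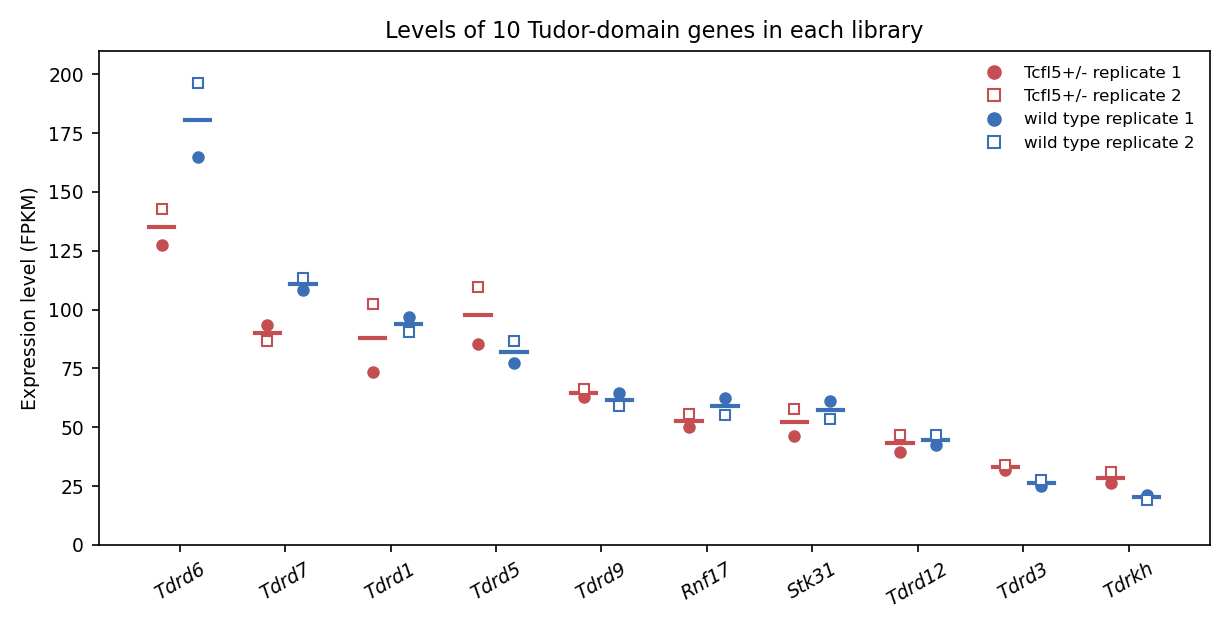
Level of each gene in FPKM (y axis) in each library, with genes ordered by their mean from left to right. Red marks are the 2 Tcfl5+/- libraries, blue marks the 2 wild-type libraries, and horizontal lines are group means; the groups are apart for Tdrd6, Tdrd7, Tdrd3 and Tdrkh and mix for the other 6 genes.

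The 10 genes did not move as a block with the Tcfl5 genotype. Tdrd6 and Tdrd7 had their 2 heterozygote values below both wild-type values, Tdrd3 and Tdrkh had them above, and in the other 6 genes the groups mixed. None of the 10 passed the test across all genes (limma-trend on log2(FPKM + 1), Benjamini-Hochberg adjustment over 13333 genes, smallest adjusted p = 0.238), and neither did any other gene (0.0%). Before adjustment, 4 of the 10, the same 4 genes, had p under 0.05, where the share over all genes was 13.2% (7.63% higher and 5.57% lower in the heterozygote). That count was 3 with scaling to an equal sum or quantile normalization, and 1 with scaling to median ratios or to the upper quartile. It was 5 with the replicate number as a block. For these other settings the share over all genes at unadjusted p was not computed, so the counts have no background. In the block fit Tdrd6 and Tdrkh passed across all genes after adjustment, as did 9.1% of genes tested. The labels do not say that the numbers pair the libraries. The groups did not overlap in 40.0% of the 10 genes, 2 higher and 2 lower, which is near the share over all genes of 42.6% (23.6% higher and 19.0% lower in the heterozygote). With 1 library left out fewer values must separate, and 8, 8, 5 and 7 of the 10 genes did not overlap without heterozygote replicate 1, heterozygote replicate 2, wild-type replicate 1 and wild-type replicate 2, where the shares over all genes were 75.7%, 65.7%, 66.9% and 76.1%. For Tdrd6, Tdrd7, Tdrd3 and Tdrkh the outcome was fixed in advance. Groups that are apart stay apart, in the same direction, when a library is left out. The median log2 difference of the 10 genes was -0.078, beside -0.015 over all genes tested. Without heterozygote replicate 1 it was 0.086, and without heterozygote replicate 2 it was -0.20.

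**Figure D2:**
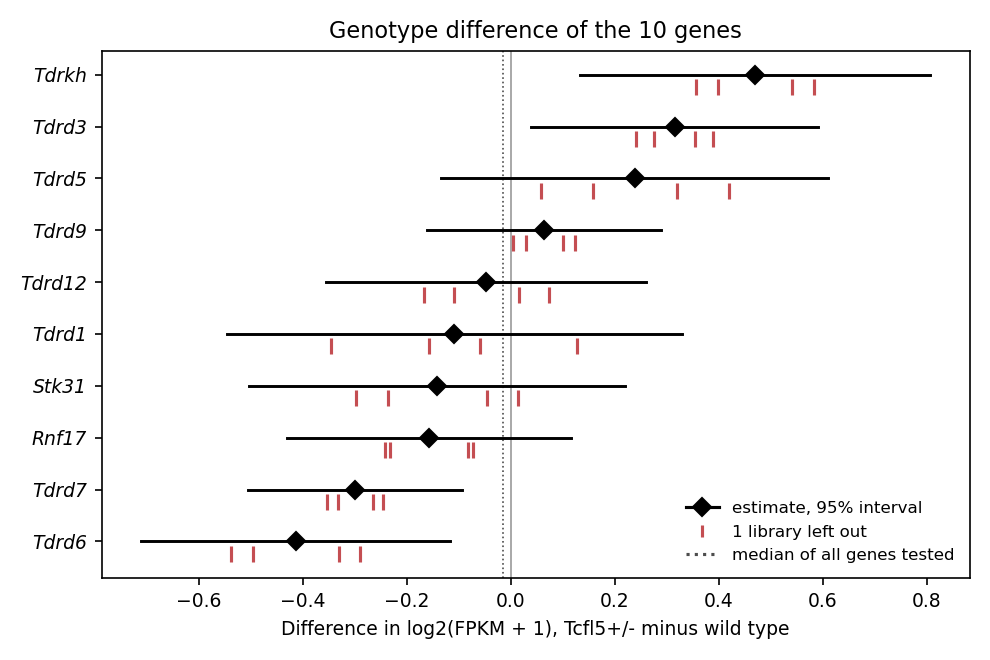
Difference in log2(FPKM + 1), Tcfl5+/- minus wild type (x axis), for each gene, as the limma-trend estimate (diamond) with its unadjusted 95% interval (line) and the 4 estimates with 1 library left out (red ticks). The intervals of Tdrkh and Tdrd3 lie above 0 and those of Tdrd6 and Tdrd7 below it, before any adjustment for the number of genes tested.

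Among the granule scaffolds, Tdrd6 had the highest level and the largest difference below 0. TDRD6 is a protein with many Tudor domains that is needed to build the chromatoid body in round spermatids. Its gene lies on chromosome 17 (43615334 to 43631351, minus strand, GRCm38), and 94.4% of its 6405 coding bases are in 1 exon of the GENCODE model, which encodes 2135 residues, the most of the 10. Tdrd6 was at 127.3 and 142.8 FPKM in the heterozygote and 165.0 and 196.2 FPKM in the wild type. Both heterozygote values were below both wild-type values, with the nearest pair 1.16-fold apart. The heterozygote mean was 135.0 ± 11.0 and the wild-type mean 180.6 ± 22.1 FPKM (SD, n = 2 each), with a ratio of 0.748, and the log2 difference was -0.41 (95% interval -0.71 to -0.12, limma-trend, adjusted p = 0.250). Its share of the summed level of the 10 genes was 20.0% and 19.5% in the heterozygote and 22.8% and 26.2% in the wild type.

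Tdrd7, on chromosome 4 (45965027 to 46034766, plus strand), encodes a scaffold that remodels the chromatoid body and is also needed in the lens of the eye. It was at 93.4 and 86.6 FPKM in the heterozygote and 108.4 and 113.6 FPKM in the wild type. Both heterozygote values lay below both wild-type values, and replicates were 1.08-fold apart in the heterozygote and 1.05-fold in the wild type. The heterozygote mean was 90.0 ± 4.79 and the wild-type mean 111.0 ± 3.68 FPKM (SD, n = 2 each), with a ratio of 0.811, and the log2 difference was -0.30 (95% interval -0.51 to -0.093, limma-trend, adjusted p = 0.238). Set against the wild-type library of the same number, heterozygote replicates 1 and 2 had log2 differences of -0.37 and -0.46 for Tdrd6 and of -0.21 and -0.39 for Tdrd7. As their groups are apart, the shared sign was fixed in advance, and the labels do not pair the libraries. The 2 signs also agreed in Tdrd3, Tdrd5 and Tdrkh, with the heterozygote higher. They differed in Tdrd1, Tdrd9, Tdrd12, Stk31 and Rnf17.

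Tdrd1, on chromosome 19 (56826171 to 56870012, plus strand), encodes a partner of the PIWI protein MILI in the intermitochondrial cement. Its level was 73.5 and 102.4 FPKM in the heterozygote and 96.9 and 90.5 FPKM in the wild type. The heterozygote libraries stood on either side of the wild-type ones, 1.39-fold apart, the widest replicate gap of the 10 genes. The log2 difference was -0.11 (95% interval -0.55 to 0.33, limma-trend, adjusted p = 0.873), and it was 0.13 without heterozygote replicate 1.

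Of the genes with a direct part in making piRNAs, Tdrkh had the largest difference above 0. TDRKH, also called TDRD2, is anchored on mitochondria, binds PIWI proteins and is needed for the trimming of piRNA ends. Its gene lies on chromosome 3 (94413138 to 94434854, plus strand) and encodes 560 residues, the fewest of the 10. Tdrkh was at 26.2 and 30.9 FPKM in the heterozygote and 21.3 and 19.3 FPKM in the wild type. Both heterozygote values exceeded both wild-type values, with the nearest pair 1.23-fold apart, the widest such gap of the 10 genes. The heterozygote mean was 28.6 ± 3.28 and the wild-type mean 20.3 ± 1.47 FPKM (SD, n = 2 each), with a ratio of 1.41, and the log2 difference was 0.47 (95% interval 0.13 to 0.81, limma-trend, adjusted p = 0.250).

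Tdrkh was the only one of the 10 genes whose span in the deposited files overlapped another gene, leaving aside genes given a span of 2 Mb or more. Its 3' end runs into Oaz3, an antizyme gene of spermatids on the opposite strand, with 1468 shared bases in the files. In the GENCODE models 2255 exonic bases were shared, 36.7% of all exonic bases of Tdrkh, through 1 of its 8 transcripts. No strand-keeping step is named in the protocol, so it is unknown whether reads of the shared part were told apart. Oaz3 was at 176.5 and 139.8 FPKM in the heterozygote and 183.6 and 94.8 FPKM in the wild type. Its groups overlapped. Oaz3 was highest in wild-type replicate 1 and Tdrkh in heterozygote replicate 2, and both were lowest in wild-type replicate 2. The part of Oaz3 in the level of Tdrkh was not tested.

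Tdrd5, on chromosome 1 (156255296 to 156305287, minus strand), encodes a piRNA factor that binds the precursors of pachytene piRNAs. Its level was 85.3 and 109.8 FPKM in the heterozygote and 77.4 and 86.6 FPKM in the wild type. Heterozygote replicate 2 stood above the rest, and heterozygote replicate 1 lay between the wild-type libraries. The log2 difference was 0.24 (95% interval -0.13 to 0.61, limma-trend, adjusted p = 0.615), and it was 0.058 without heterozygote replicate 2 and 0.42 without heterozygote replicate 1.

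Tdrd9 and Tdrd12 encode proteins with RNA helicase domains that act with PIWI proteins in fetal germ cells, where transposons are first silenced. Tdrd9, on chromosome 12 (111971469 to 112068854, plus strand), was at 63.0 and 66.2 FPKM in the heterozygote and 64.4 and 59.2 FPKM in the wild type. The ratio of its highest to its lowest value was the smallest of the 10 genes. Its log2 difference was 0.064 (95% interval -0.16 to 0.29, limma-trend, adjusted p = 0.851). Tdrd12, on chromosome 7 (35466941 to 35538162, minus strand), was at 39.5 and 46.9 FPKM in the heterozygote and 42.6 and 46.5 FPKM in the wild type. The wild-type values lay inside the heterozygote range. Its log2 difference was -0.047 (95% interval -0.35 to 0.26, limma-trend, adjusted p = 0.915), and it was 0.073 without heterozygote replicate 1 and 0.015 without wild-type replicate 2.

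Rnf17 and Stk31 carry another enzyme-type domain beside their Tudor domains. RNF17, also called TDRD4, has a RING domain and is needed in spermatids, and in meiotic cells it limits the amplification of piRNAs. Rnf17, on chromosome 14 (56402634 to 56525032, plus strand), was at 49.9 and 55.5 FPKM in the heterozygote and 62.4 and 55.4 FPKM in the wild type. Heterozygote replicate 2 and wild-type replicate 2 were nearly equal, and the order of these 2 turned with each of the 4 other scalings, under which Rnf17 was lower in both heterozygote libraries. Its log2 difference was -0.16 (95% interval -0.43 to 0.12, limma-trend, adjusted p = 0.657).

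STK31, also called TDRD8, joins a Tudor domain to a kinase-like domain. Stk31, on chromosome 6 (49395483 to 49469506, plus strand), was at 46.3 and 57.8 FPKM in the heterozygote and 61.2 and 53.5 FPKM in the wild type. The libraries alternated in order, with heterozygote replicate 1 lowest and wild-type replicate 1 highest. Its log2 difference was -0.14 (95% interval -0.50 to 0.22, limma-trend, adjusted p = 0.789), and it was 0.015 without heterozygote replicate 1.

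Tdrd3 is the member with the least tie to the germ line. TDRD3 is made in most tissues, reads methylated arginines on histones and partners the topoisomerase TOP3B. Its gene, on chromosome 14 (87412305 to 87545508, plus strand), was at 32.0 and 33.9 FPKM in the heterozygote and 24.9 and 27.7 FPKM in the wild type. Both heterozygote values exceeded both wild-type values, with the nearest pair 1.16-fold apart. The heterozygote mean was 32.9 ± 1.29 and the wild-type mean 26.3 ± 1.99 FPKM (SD, n = 2 each), with a ratio of 1.25, and the log2 difference was 0.32 (95% interval 0.039 to 0.59, limma-trend, adjusted p = 0.315).

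Because some of the genes lay above and others below the wild type, their proportions differed between the libraries. The ratio of Tdrd6 to Tdrkh was 4.85 and 4.63 in the heterozygote and 7.73 and 10.2 in the wild type. The ratio of Tdrd7 to Tdrd3 was 2.92 and 2.56 in the heterozygote and 4.35 and 4.10 in the wild type. Scaling of a whole library cancels in such ratios. These pairs were chosen after the values were seen, so the ratios have no test.

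**Figure D3:**
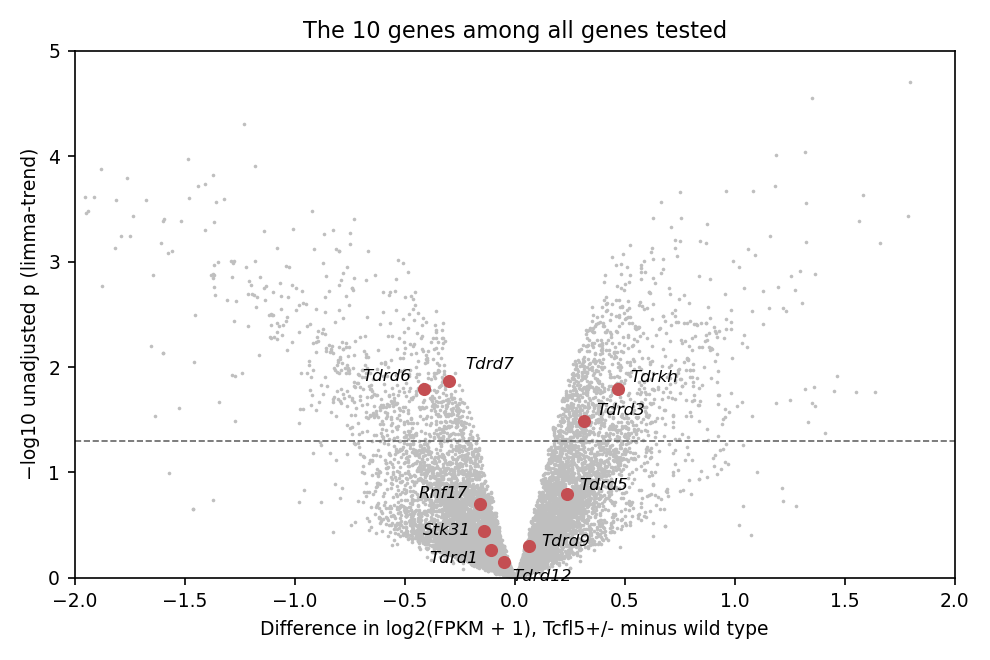
Difference in log2(FPKM + 1), Tcfl5+/- minus wild type (x axis), against the negative log10 of the unadjusted p from limma-trend (y axis) for all 13333 genes tested (grey), with the 10 Tudor-domain genes in red; 10 genes lie outside the axes. The dashed line marks an unadjusted p of 0.05, above which Tdrd6, Tdrd7, Tdrkh and Tdrd3 lie within the main body of genes.

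The replicates of a genotype differed from each other in these genes. In the heterozygote, 9 of the 10 genes were higher in replicate 2 than in replicate 1, Tdrd7 being the exception, and in the wild type 5 of the 10 were. The share over all genes tested was not computed, so these counts are not read as a trait of the 10 genes. The genotype difference exceeded the larger of the replicate gaps for 4 of the 10 genes, Tdrd3, Tdrd6, Tdrd7 and Tdrkh, and for 32.2% of all genes tested. Only genes whose groups are apart can meet this rule, so it adds no separate evidence for these 4. Stk31 and Rnf17 had the most similar profiles over the 4 libraries (distance 0.116 on the centred log2 scale), followed by Tdrd1 and Stk31 (0.135). Tdrd6 and Tdrkh were farthest apart (0.926). Outside the family, the closest profiles to the mean of the 10 were those of Cdc45, Pcsk7, Gtf2e1, Hjurp and Depdc5, at distances of 0.0149 to 0.0234 over 4 libraries among 7470 genes. That mean averages genes that went opposite ways, such as Tdrd6 and Tdrkh. These distances are to the average only, and cannot be set beside those between members.

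Markers of other cells of the testis moved between the libraries too. The 12 spermatid markers summed to 2633 and 2174 FPKM in the heterozygote and 1669 and 743.3 FPKM in the wild type, and none was at 0. Prm1, Prm2, Tnp1 and Tnp2, which encode the protamines and transition proteins that pack sperm DNA, made up most of the sum, and without these 4 genes it was 603.7 and 464.9 FPKM in the heterozygote and 631.1 and 305.5 FPKM in the wild type, so that the groups overlapped. The mean log2(FPKM + 1) of the 12 overlapped too, at 6.88 and 6.54 in the heterozygote and 6.56 and 5.45 in the wild type. In 6 of the 12, these 4 with Spata18 and Tssk6, the groups were apart with the heterozygote higher, beside 23.6% of all genes, and in the other 6 they overlapped, with a log2 difference of -0.41 for Acrv1. None of the 12 passed the test. Prm1 was at 522.7 and 412.5 FPKM in the heterozygote and 247.7 and 113.6 FPKM in the wild type. The 12 Sertoli cell markers summed to 741.3 and 249.4 FPKM in the heterozygote and 727.8 and 467.9 FPKM in the wild type, and the 8 Leydig cell markers to 599.0 and 319.3 FPKM against 554.7 and 348.5 FPKM. Both somatic lists were lower in replicate 2 of each genotype, and none of their genes was at 0. The counts of Tudor genes higher in replicate 2, 9 of 10 in the heterozygote and 5 of 10 in the wild type, lack a share over all genes. They are therefore not set against these lists. The 12 markers of spermatogonia and early prophase summed to 221.7 and 223.9 FPKM in the heterozygote and 324.9 and 223.2 FPKM in the wild type. Most of it came from Tex101, at 183.1 and 202.3 FPKM in the heterozygote and 285.0 and 201.1 FPKM in the wild type. The mean log2(FPKM + 1) of these 12 was lower in replicate 2 of each genotype, at 1.82 and 1.56 in the heterozygote and 2.03 and 1.60 in the wild type. In such bulk samples fewer cells of a type and less RNA per cell cannot be told apart. The part of these cell types in the levels of the Tudor genes was not tested.

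**Figure D4:**
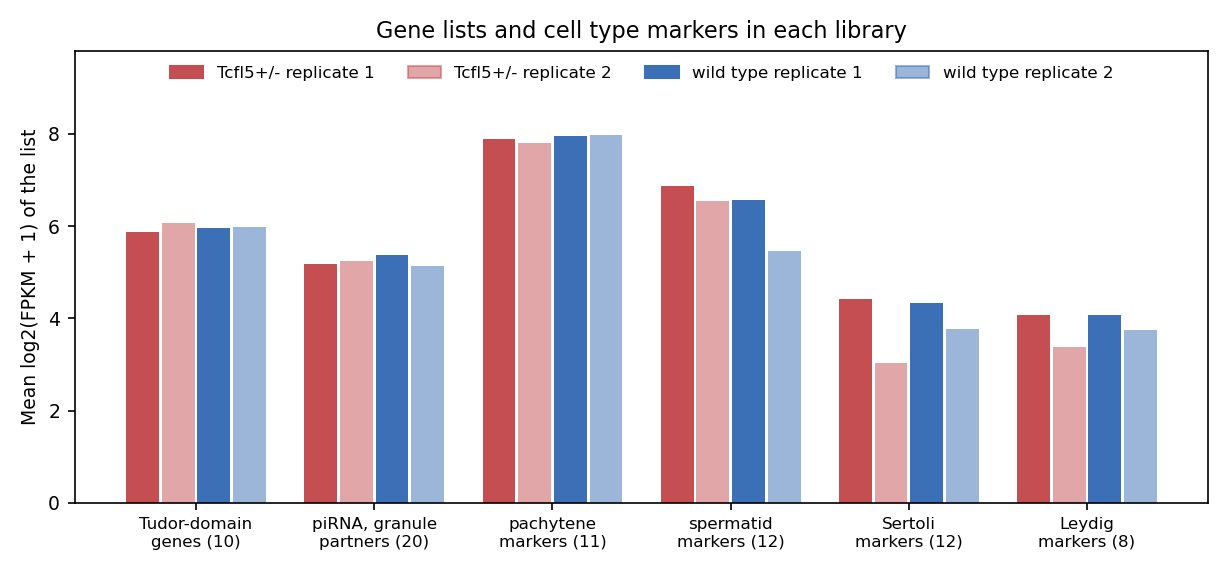
Mean log2(FPKM + 1) (y axis, from 0) of the Tudor-domain genes, their piRNA and granule partners and 4 marker lists, with the number of genes in brackets, in the 2 Tcfl5+/- libraries (red) and the 2 wild-type libraries (blue). The means lie between 5.86 and 6.06 for the Tudor-domain genes, 5.14 and 5.37 for their partners and 7.81 and 7.97 for the pachytene markers. They lie between 5.45 and 6.88 for the spermatid, 3.03 and 4.42 for the Sertoli and 3.37 and 4.06 for the Leydig markers. The Tudor mean averages genes that went opposite ways.

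Among the partners of the Tudor proteins, genes also lay on either side of the wild type. Of 20 genes of the piRNA pathway and its granules, 19 were tested and none passed in either direction. In 5 the groups were apart with the heterozygote higher and in 4 with it lower, beside the 23.6% and 19.0% of all genes, and the median log2 difference was -0.072. Gpat2, a mitochondrial outer membrane protein needed for early piRNAs, was at 49.8 and 61.7 FPKM in the heterozygote and 43.9 and 40.8 FPKM in the wild type (log2 difference 0.38, limma-trend, adjusted p = 0.318). Henmt1, which methylates the ends of piRNAs, was at 32.8 and 35.3 FPKM against 40.2 and 42.1 FPKM (log2 difference -0.27, adjusted p = 0.333). Fkbp6, a co-chaperone of PIWI loading, was at 43.1 and 46.0 FPKM against 37.9 and 26.7 FPKM (log2 difference 0.47, adjusted p = 0.373). Mybl1, which encodes the meiotic activator A-MYB, was at 25.9 and 28.2 FPKM in the heterozygote and 29.7 and 33.1 FPKM in the wild type (log2 difference -0.21, adjusted p = 0.559). It was named after its values were seen.

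The list of enzymes that methylate arginines, and so make the marks that such Tudor domains bind, also holds Wdr77, Clns1a and Riok1, which encode partners of PRMT5. Of its 12 genes 11 were tested, and none passed. Their median log2 difference was 0.061, and the groups were apart with the heterozygote higher in 4 (Prmt7, Prmt5, Carm1 and Riok1) and lower in 2 (Prmt2 and Clns1a), beside 23.6% and 19.0% of all genes. Prmt7 was at 79.7 and 80.4 FPKM in the heterozygote and 62.6 and 65.9 FPKM in the wild type (log2 difference 0.31, limma-trend, adjusted p = 0.218). Prmt5, the main enzyme for the symmetric form of the mark on PIWI proteins, was at 37.8 and 42.6 FPKM against 32.5 and 33.5 FPKM (log2 difference 0.27, adjusted p = 0.361). Carm1, which makes the asymmetric form, was at 14.2 and 15.0 FPKM against 13.2 and 9.88 FPKM (log2 difference 0.33, adjusted p = 0.565).

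Other genes with Tudor domains, most of them chromatin or splicing proteins of all tissues, were tested for 19 of 21, and none passed. Their median log2 difference was -0.0345, with the groups apart in 2 of the 19 in each direction, where the shares over all genes were 23.6% higher and 19.0% lower. Those with the smallest p were Uhrf1, which guides maintenance DNA methylation, at 40.4 and 44.7 FPKM in the heterozygote and 53.0 and 48.7 FPKM in the wild type (limma-trend, adjusted p = 0.393), Mtf2, a Polycomb partner, at 29.7 and 34.2 against 25.6 and 27.9 FPKM (adjusted p = 0.497), and the splicing factor gene Smndc1 at 22.8 and 23.8 against 30.3 and 24.7 FPKM (adjusted p = 0.617).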

How the data were processed

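The data are gene-level FPKM values of 4 libraries, 2 per genotype, written by the authors to 2 decimals, per the file headers. According to the labels' protocols, mRNA was captured on oligo(dT) beads and read as single-end reads of 50 bases. The submitters' processing notes name RSEM 1.2.12, Bowtie2 2.2.5 and HISAT2 2.0.4 and the build GRCm38 (mm10), with no role for each tool. The files hold no counts, so depth is unknown and no counting interval is given. The values summed to 492203 and 483954 FPKM in the heterozygote and 473346 and 468130 FPKM in the wild type.

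Files were joined by gene identifier, with 0 for a gene missing from a library. The 13333 genes averaging 0.5 FPKM or more were tested with limma-trend (limma 3.58.1, R 4.3.3) on log2(FPKM + 1), two-sided, with genotype as the only term and Benjamini-Hochberg adjusted p under 0.05. This scale understates the change of low genes. The members and lists were chosen with earlier results of these data known. Named genes are the 10 members, Tcfl5, up to 3 genes of smallest p in each other list and the 5 genes of most similar profile. Genes of the marker lists, Riok1, Prmt2, Clns1a and Wdr77 were named after their values were seen. The alternatives were other pseudocounts, filters and scalings, the replicate number as a block, and leaving out each library. Motifs were counted in RefSeq promoter windows on both strands. Exon overlaps and coding lengths came from GENCODE M21.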

Additional observations from a re-analysis of the deposited data

How the results depend on the processing

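Over 12 alternatives, 7 of the 10 genes kept their direction, including Tdrd3, Tdrd6, Tdrd7 and Tdrkh. For these 4 genes, whose groups were apart, leaving out a library could not change the direction. For any of the 10, the other filters and the replicate block leave the log2 difference as it was. These alternatives could not change a direction either. Over the 4 fits with 1 library left out, the log2 difference of Tdrd1 lay between -0.35 and 0.13, that of Tdrd12 between -0.17 and 0.073 and that of Stk31 between -0.30 and 0.015. In the same fits the median of the 10 genes lay between -0.20 and 0.086 and the number whose groups did not overlap was 5 to 8. No member passed under any pseudocount, filter or scaling, or with a library left out. All genes passing numbered 65 with scaling to median ratios (18 higher, 47 lower), 41 with scaling to the upper quartile (9 and 32) and 135 with quantile normalization (42 and 93), and the cause was not tested. With the replicate number as a block, 1213 genes passed (9.1% of those tested, 650 higher and 563 lower), 2 of them members, Tdrd6 (adjusted p = 0.00844, range over all alternatives 0.00844 to 0.677) and Tdrkh (adjusted p = 0.0377, range 0.0377 to 0.836). Same-numbered libraries deviated together from their group means (r = 0.529 across 13333 genes, which are not independent replicates), but nothing in the labels says that the numbers pair the libraries, and 2 pairs cannot settle it. With 2 libraries per genotype and no read counts, the error of low values could not be separated from the spread between libraries.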
